A study of Mus musculus with 14 samples.

Results

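MHC class II molecules present peptides taken up from outside the cell to CD4 T cells. An alpha and a beta chain pair in the endoplasmic reticulum, the invariant chain Cd74 fills their groove and guides them to late endosomes, and H2-DM then exchanges the last fragment of Cd74 for peptide while H2-O holds H2-DM back. Ciita is the master regulator of the whole set: it binds no DNA itself and acts through factors that sit on the X and Y boxes of class II promoters. Dendritic cells, B cells and macrophages carry class II at all times, and enterocytes of the mouse small intestine carry it too, under the control of interferon gamma. The genes listed were the classical chains H2-Aa, H2-Ab1 and H2-Eb1, the invariant chain Cd74, the loading chains H2-DMa, H2-DMb1 and H2-DMb2, the inhibitor chains H2-Oa and H2-Ob, and Ciita. A gene was included where the array held a transcript cluster annotated to its symbol alone. That gave 8 of the 10 listed genes, out of 19938 genes tested, each read by 1 cluster. H2-DMb1 and H2-DMb2 are read together by 1 shared cluster, so no value is given for either.

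Values are log2 signals from arrays probed with total RNA of mouse proximal duodenum. Tumors came from the duodenum of 6 Lrig1-CreERT2/CreERT2 (Lrig1-/-) mice, in which the Cre insertion takes the place of both working copies of Lrig1. Adjacent tissue was duodenum labelled normal from 5 of those 6 mice, of the same genotype as the tumors, and the controls were 3 wildtype mice. All mice were of a mixed background, 129S7/SvEv and C57/BL6, and the labels call the mice age matched without giving an age. The 14 arrays came from 9 mice, so that each group holds 1 array per mouse, and tumor and adjacent tissue share 5 mice. The labels describe the normal tissue as epithelium, yet smooth muscle markers had a mean log2 signal of 9.93 to 11.19 in adjacent arrays and 10.64 to 11.75 in wildtype arrays, and B, T and dendritic cell genes were read as well. In bulk tissue, fewer cells of a type and less RNA per cell cannot be told apart.

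Lrig1 itself, the deleted gene, read 7.65 to 8.54 in tumors, 6.95 to 7.40 in adjacent tissue and 8.22 to 9.54 in wildtype tissue, so that tumors overlapped wildtype arrays and adjacent arrays did not; where its probes lie relative to the insertion is not given in the labels. Several non-tumor arrays stood apart. Pancreatic acinar transcripts, averaged over 9 genes, read 13.43 in adjacent replicate 1, 14.17 in adjacent replicate 2, 14.005 in wildtype replicate 1 and 13.64 in wildtype replicate 3. That average was 7.26 to 7.45 in the other 4 non-tumor arrays and 7.12 to 9.93 in tumors. Wildtype replicate 1 also had a gastric pit marker mean of 13.40, inside the tumors' range of 12.31 to 13.85, whereas adjacent tissue had 6.11 to 8.19 and the lowest wildtype array 6.73. Class II results are therefore given with and without these arrays.

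The promoters of the members are shown first, since class II promoters have a known control layout. Whether their letters go with the changes in expression given below was not tested. RefSeq promoter windows on GRCm38.p6, each running from 250 bases before the gene start to 50 after it, were at hand for 7 of the 10 genes, as 8 windows. Entries for H2-Ab1, Cd74 and Ciita were missing. In class II promoters the X box, bound by the RFX complex, lies upstream of the Y box, bound by NF-Y. The windows were searched for the Y box core ATTGG and for a spaced pair, written as GNAAC followed after 24 to 32 bases by ATTGG. The pair was written from the known layout of class II promoters, so a match describes these windows and shows no binding. Read along the gene, the pair was present in 5 of the 8 member windows, those of H2-Aa, H2-Eb1, H2-Oa, H2-Ob and H2-DMb1, and in 0.743% of all 32851 windows (1.54% counting either strand). The core alone was present in 7 of the 8, against 22.1% of all windows (37.4% counting either strand). The stretches below run along the gene, with the X letters and the Y box in capitals. The Y box is shown in its longer form CTGATTGG, which contains the core, where a window held it; 1.99% of all windows did on the gene strand and 4.1% on either strand.
H2-Aa: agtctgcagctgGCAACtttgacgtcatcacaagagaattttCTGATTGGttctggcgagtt
H2-Eb1: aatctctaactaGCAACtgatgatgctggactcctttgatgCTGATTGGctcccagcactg
H2-Oa: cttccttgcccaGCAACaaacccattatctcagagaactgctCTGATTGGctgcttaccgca
H2-Ob: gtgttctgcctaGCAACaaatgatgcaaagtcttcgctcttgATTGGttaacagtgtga
H2-DMb1: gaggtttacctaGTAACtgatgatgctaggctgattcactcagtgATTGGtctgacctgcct

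These stretches lie on chromosome 17, at chr17:34287855-34287916 on the minus strand for H2-Aa and on the plus strand at chr17:34305764-34305824 for H2-Eb1, chr17:34092291-34092352 for H2-Oa, chr17:34238806-34238864 for H2-Ob and chr17:34153085-34153146 for H2-DMb1. The gap between the X letters and the core was 28 bases in H2-Aa, H2-Oa and H2-DMb1, 27 in H2-Eb1 and 25 in H2-Ob. The core began at positions -61 to -43 from the gene start in all 5. H2-DMb2 had the core without the spaced pair. H2-DMa, which had 2 windows, had the core in 1 of them, at -198 from that start, and the pair in neither. A window without a match says only that these letters are not in it. The whole H2-Aa window, chr17:34287774-34288073 on the minus strand, is given to place the pair in its surroundings.
H2-Aa: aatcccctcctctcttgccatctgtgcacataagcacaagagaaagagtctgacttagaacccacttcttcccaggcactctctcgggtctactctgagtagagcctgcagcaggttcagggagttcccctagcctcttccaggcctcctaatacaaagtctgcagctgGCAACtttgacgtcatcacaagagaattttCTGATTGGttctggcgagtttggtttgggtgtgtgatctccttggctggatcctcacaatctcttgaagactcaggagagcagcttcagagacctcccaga

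**Figure D1:**
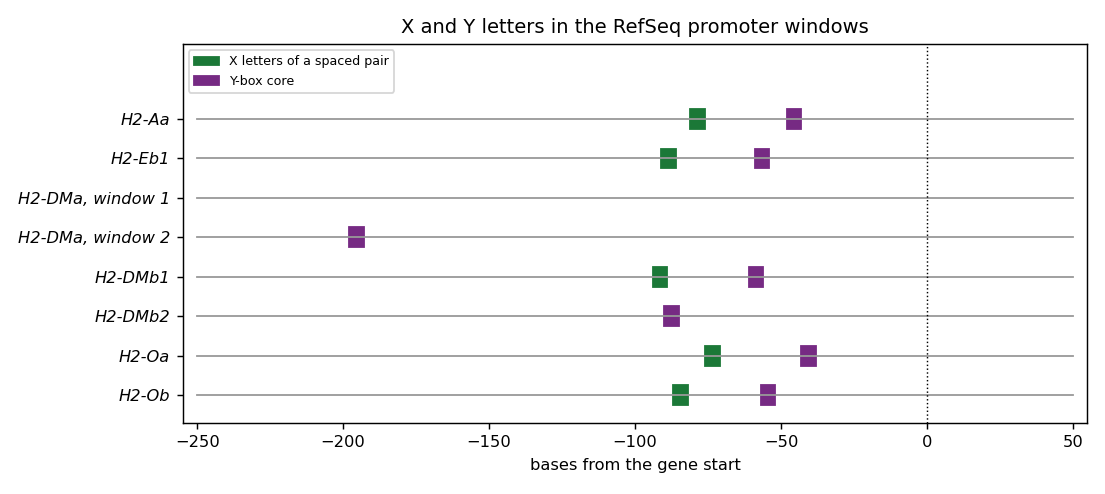
Position of the X letters (green) and the Y-box core (purple) in the 8 RefSeq promoter windows of 7 listed genes, in bases from the gene start (dotted line at 0). In the 5 windows with a spaced pair the core begins at -61 to -43, and 25 to 28 bases separate it from the X letters upstream.

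The main question was how class II expression in a tumor compares with the normal duodenum of the same mouse. All 8 measured members fell in tumors (limma, adjusted p over all genes below 0.05), and each was lower in tumor than in adjacent tissue in all 5 pairs. Of all genes tested, 12.6% fell by the same rule and 19.1% rose, while 0 members rose; 31.7% changed in either direction, and 13.3% were lower in all 5 pairs. The median log2 fold change of the 8 members was -1.66, against 0.04 over all genes. The loading chain H2-DMa fell most, the inhibitor chains H2-Oa and H2-Ob least, and the classical chains, Cd74 and Ciita lay between. Tumor and adjacent tissue are both Lrig1-/-, so this comparison does not measure the loss of Lrig1.

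**Figure D2:**
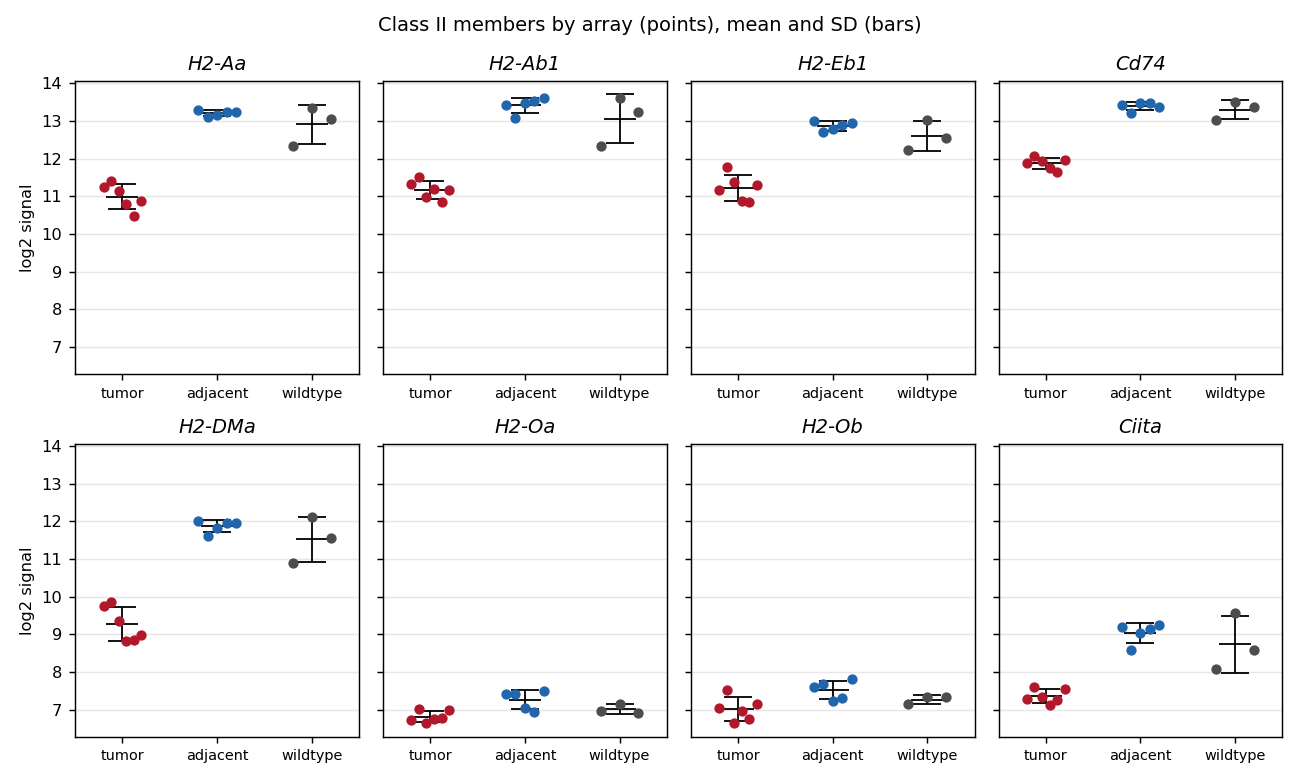
Log2 signal of the 8 measured members on each array (points), with the mean and SD of 6 tumors (red), 5 adjacent samples (blue) and 3 wildtype samples (grey). Tumors lie below every adjacent and wildtype array for 6 genes, and the groups overlap for H2-Oa and H2-Ob.

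The classical chains form the peptide-binding molecules themselves, H2-Aa with H2-Ab1 as I-A, and H2-Eb1 as the beta chain of I-E. H2-Aa (transcript cluster 10450154) had 10.49, 11.002 and 11.40 as its lowest, median and highest log2 signal in 6 tumors, against 13.29, 13.11, 13.16, 13.24 and 13.23 in adjacent replicates 1 to 5 and 12.34, 13.33 and 13.04 in wildtype replicates 1 to 3. No tumor reached the lowest non-tumor array, wildtype replicate 1. The mean was 10.99 ± 0.34 in tumors (SD, n = 6), against 13.21 ± 0.07 in adjacent tissue (n = 5), a log2 fold change of -2.23 ± 0.15 (SE; limma adjusted p = 3.23e-07), or 4.69-fold lower.

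H2-Ab1 (10444291), the beta chain that pairs with H2-Aa, had 10.84, 11.19 and 11.52 as lowest, median and highest in tumors, against 13.41, 13.09, 13.48, 13.52 and 13.60 in the adjacent replicates and 12.35, 13.60 and 13.22 in the wildtype replicates. It fell by 2.26 ± 0.16 on the log2 scale (limma adjusted p = 4.18e-07). H2-Eb1 (10444298) had 10.85, 11.24 and 11.77 in tumors, against 12.997, 12.70, 12.78, 12.89 and 12.95 in adjacent tissue and 12.22, 13.02 and 12.56 in wildtype tissue. Its fall was smaller, at -1.64 ± 0.14 (limma adjusted p = 1.66e-06), and again the groups did not overlap. H2-Ea, the alpha partner of H2-Eb1, is silent in C57BL/6 mice because of a promoter deletion. It read 5.13 to 5.61 over the 6 tumors, and no adjacent or wildtype array was above 5.61, with a log2 fold change of 0.02 (limma adjusted p = 0.909). H2-Eb2, another beta chain gene of the locus, fell by 0.49 ± 0.10 on the log2 scale from a low level (limma adjusted p = 0.002).

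Cd74 (10456005), the invariant chain, had 11.65, 11.91 and 12.06 as lowest, median and highest in tumors, against 13.41, 13.21, 13.47, 13.48 and 13.38 in adjacent tissue and 13.01, 13.51 and 13.36 in wildtype tissue. It had the smallest SE of the 8 members, with a log2 fold change of -1.52 ± 0.09 (limma adjusted p = 1.36e-07), which is 2.86-fold. The groups did not overlap.

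H2-DMa (10444229), the alpha chain of the H2-DM peptide exchanger, had 8.83, 9.17 and 9.85 in tumors, against 11.999, 11.61, 11.83, 11.95 and 11.96 in adjacent tissue and 10.89, 12.10 and 11.56 in wildtype tissue. More than 1 log2 unit separated the highest tumor from the lowest non-tumor array. The log2 fold change was -2.63 ± 0.19 (limma adjusted p = 5.32e-07), 6.2-fold and the largest of the 8. Within a mouse it fell more than Cd74 in all 5 pairs, with changes of -2.15 to -3.10 on the log2 scale, against -1.27 to -1.84 for Cd74; this difference between the members was not tested.

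Ciita (10433507), the transactivator, had 7.14, 7.32 and 7.60 as lowest, median and highest in tumors, against 9.20, 8.60, 9.05, 9.15 and 9.24 in adjacent tissue and 8.08, 9.56 and 8.58 in wildtype tissue. Tumors sat close to the median of all clusters on their array, 7.11 to 7.29 over the 14 arrays, and below every non-tumor value. The log2 fold change was -1.67 ± 0.17 (limma adjusted p = 6.11e-06), 3.19-fold, between those of Cd74 and H2-Aa.

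H2-Oa and H2-Ob, the chains of the H2-DM inhibitor H2-O, are in mice chiefly genes of B cells, some dendritic cells and thymic epithelium. H2-Oa (10444223) had 6.64, 6.77 and 7.03 in tumors, against 7.42, 7.41, 7.06, 6.95 and 7.51 in adjacent tissue and 6.98, 7.16 and 6.92 in wildtype tissue. H2-Ob (10444284) had 6.66, 7.01 and 7.53 in tumors, against 7.61, 7.68, 7.24, 7.31 and 7.81 in adjacent tissue and 7.14, 7.33 and 7.35 in wildtype tissue. Both stayed near the array median in every group, and tumors overlapped adjacent tissue for both. They fell by 0.44 ± 0.09 and 0.51 ± 0.12 on the log2 scale (limma adjusted p = 0.0021 for H2-Oa and 0.00506 for H2-Ob). These were the only members whose call in this comparison depended on the arrays used. H2-Oa did not pass within mice whose ID begins with B, at -0.33 (adjusted p = 0.085). H2-Ob did not pass within mice whose ID begins with F, at -0.56 (adjusted p = 0.197), nor without the non-tumor arrays lacking acinar transcripts, at -0.61 (adjusted p = 0.0713). With all arrays the H2-Ob estimate was -0.51, and both settings used fewer arrays. Why H2-Ob did not pass there was not tested. With array weights H2-Ob stood at -0.33 (adjusted p = 0.0541).

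Tumors had no overlap with adjacent tissue for 6 of the 8 members, all but H2-Oa and H2-Ob, where 6.84% of all genes had such a gap with tumors lower and 10.3% with tumors higher. Individual mice differed in how far the members fell. The pair of tumor replicate 5 had the largest fall of 5 members (H2-Aa, H2-Ab1, H2-Eb1, Cd74 and H2-DMa), that of tumor replicate 4 the largest of Ciita, and that of tumor replicate 3 the largest of H2-Oa and H2-Ob. Tumor replicate 2 was the highest tumor for all 8 members, while adjacent replicate 2 was the lowest adjacent array for 6, all but H2-Oa and H2-Ob.

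**Figure D3:**
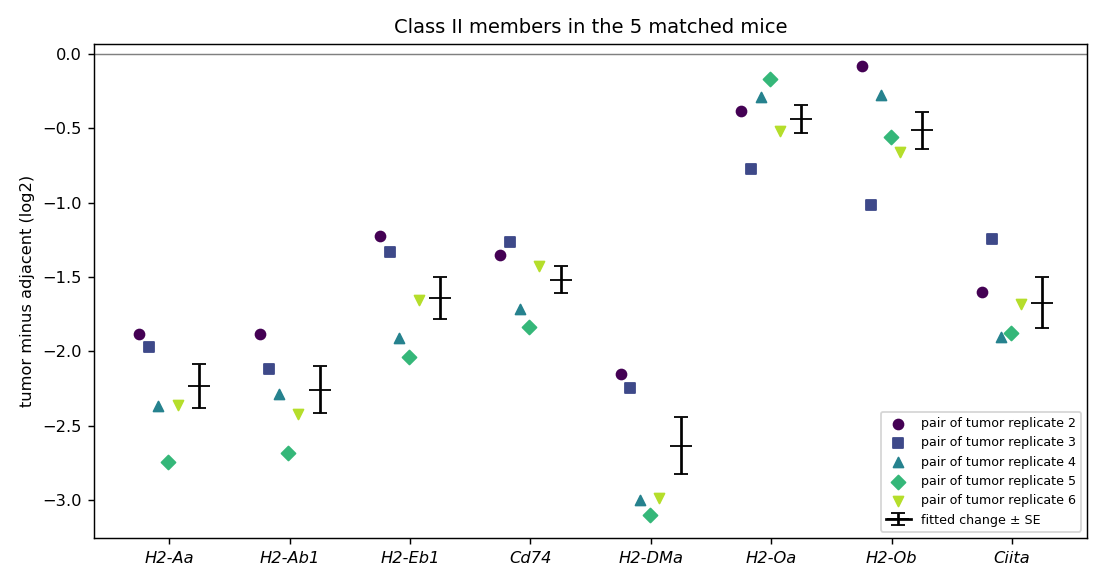
Tumor minus adjacent log2 signal of the 8 members in each of the 5 matched mice (coloured symbols), with the fitted change and its SE (black). All 40 differences are below 0, from -3.10 for H2-DMa to -0.085 for H2-Ob.

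The first letter of the mouse ID, whose meaning the labels do not give, was examined as a possible batch. In mice with letter F (3 tumors, 2 adjacent) H2-Aa changed by -1.93 (limma adjusted p = 0.00107), H2-DMa by -2.16 (adjusted p = 0.002) and Ciita by -1.47 (adjusted p = 0.00786). In mice with letter B (3 tumors, 3 adjacent) the same genes changed by -2.49 (adjusted p = 1.12e-06), -3.03 (adjusted p = 6.35e-07) and -1.82 (adjusted p = 9.09e-05). The fall was larger in B mice for 6 members, all but H2-Oa and H2-Ob, but in an interaction test 0 of 8 members passed in limma, 5 had an unadjusted p below 0.05, and H2-DMa came nearest at -0.87 ± 0.20 (adjusted p = 0.12). Of all genes, 0.0351% passed that test and 11.7% had an unadjusted p below 0.05. The 2 adjacent arrays of letter F are those with acinar transcripts, so letter and acinar content cannot be told apart there. Without the 4 non-tumor arrays that carried acinar transcripts all 8 members passed, where 30.2% of all genes passed in either direction, with H2-Aa at -2.32 and H2-DMa at -2.78. Without the 4 that lacked them 7 members passed, all but H2-Ob, where 10.9% of all genes passed, with H2-Aa at -2.14 and H2-DMa at -2.46.

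The members varied together. Over the 14 arrays Pearson's r between any 2 of the 6 members other than H2-Oa and H2-Ob was 0.957 to 0.996 (15 gene pairs), which largely reflects the difference between tumors and the rest. After subtraction of group means r was still 0.689 to 0.949. H2-Oa and H2-Ob correlated with each other at 0.911 over arrays and 0.82 in deviations, but with the other 6 only at 0.673 to 0.759 and 0.0509 to 0.536. These values describe the same 14 arrays, which share mice, and carry no test.

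**Figure D4:**
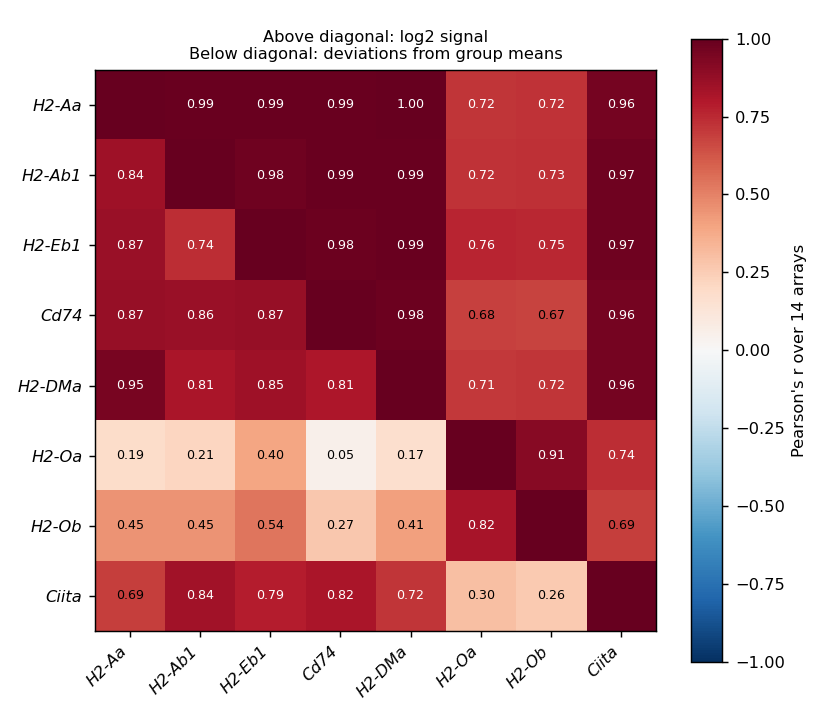
Pearson's r between members over 14 arrays, for log2 signal above the diagonal and for deviations from group means below it. The 6 members other than H2-Oa and H2-Ob form a block of 0.957 to 0.996 above and 0.689 to 0.949 below, and H2-Oa with H2-Ob has 0.911 above and 0.82 below.

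The genes whose pattern was most like the mean of H2-Aa, H2-Ab1, H2-Eb1 and Cd74 over the 14 arrays were Exoc3l4 (r = 0.99), Numb (r = 0.988), Dao (r = 0.988), Slc6a19 (r = 0.987) and Pipox (r = 0.986). Slc6a19 is a neutral amino acid transporter of the brush border, and Dao and Pipox encode peroxisomal amino acid oxidases. In deviations from group means the nearest genes were Hadh (r = 0.915), Rdh7 (r = 0.907), Eci1 (r = 0.905), Ptprcap (r = 0.9) and Mlxipl (r = 0.899). Hadh and Eci1 encode enzymes of mitochondrial fatty acid oxidation, Mlxipl a carbohydrate-responsive transcription factor, and Ptprcap a partner of the leukocyte phosphatase CD45.

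The other genes of the pathway did not all move with the members. Of the 7 factors of the class II promoter complex (RFX subunits, NF-Y subunits and Creb1) 0 fell in tumors against adjacent tissue and 1 rose, the RFX subunit gene Rfxap (0.27 ± 0.06, limma adjusted p = 0.00263); the NF-Y subunit gene Nfyb stood at 0.35 (adjusted p = 0.0582). Their median log2 fold change was 0.06, against -1.67 for Ciita. Along the interferon gamma axis 5 of 11 genes fell and 0 rose. The chemokine Cxcl9 (-1.89 ± 0.22, adjusted p = 1.85e-05), the chemokine Cxcl10 (-1.31 ± 0.24), the transcription factor Irf1 (-1.13 ± 0.15, adjusted p = 5.54e-05), which acts on a Ciita promoter, and the kinase Jak2 (-0.91 ± 0.14) led them. Ifng itself, a gene named here after its values were seen, read 6.35 to 6.60 in tumors, 6.42 to 6.70 in adjacent tissue and 6.16 to 7.01 in wildtype tissue, with no call. All these values lie below the array median of 7.11 to 7.29, so the lack of a call says little about Ifng.

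Proteases and ligases that act on class II and its cargo split. Of 9 genes of class II antigen processing 3 fell and 4 rose. Ctss, the protease that makes the last cut in the invariant chain, fell by 1.00 ± 0.18 on the log2 scale (limma adjusted p = 0.000573), as did the ubiquitin ligase gene Marchf8 by 0.35 ± 0.09, while the lysosomal proteases Ctsl (0.81 ± 0.16) and Ctsd (0.72 ± 0.08) rose. Class I presentation genes, which share the interferon control of class II, fell in 9 of 10 with a median of -0.80, led by the proteasome subunits Psmb8 (-2.12 ± 0.18) and Psmb9 (-1.41 ± 0.16) and the peptide transporters Tap1 (-1.42 ± 0.16) and Tap2 (-1.05 ± 0.15). The exception was Nlrc5, the class I counterpart of Ciita, named after its value was seen, at -0.22 ± 0.14 (adjusted p = 0.288). Of 10 genes of class II receptors and costimulation, which act on the T cell or on the presenting cell, 4 fell and 0 rose. On the T cell these were the class II receptors Cd4 (-1.02 ± 0.14) and Lag3 (-0.60 ± 0.09) and the costimulatory receptor Cd28 (-0.50 ± 0.09), and on the presenting cell the Cd28 ligand Cd86 (-0.35 ± 0.10).

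**Figure D5:**
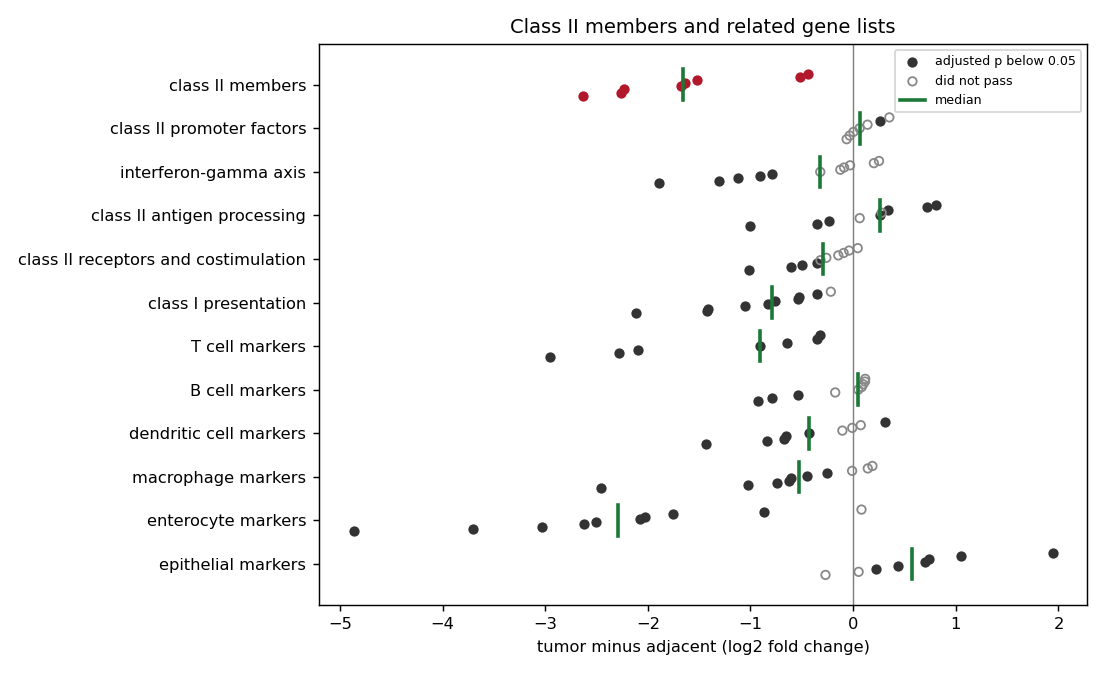
Log2 fold change of tumor against adjacent tissue for the 8 class II members (red) and the genes of 11 related lists, filled where the limma adjusted p was below 0.05 and open where it was not, with the median of each list in green. The class II median is -1.66, the enterocyte median -2.29, the B cell median 0.05 and the epithelial median 0.57. The B cell median is the value of Ms4a1, a gene read below the array median.

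Markers of the cell types that carry class II moved to different degrees beside the members, and their part in the class II result was not tested. Enterocyte markers fell in 9 of 10 with a median of -2.29, led by Lct (-4.86 ± 0.42), Dpp4 (-3.71 ± 0.25), Anpep (-3.03 ± 0.19) and Sis (-2.62 ± 0.24), and their mean log2 signal was 10.72 to 11.20 in tumors, 12.97 to 13.75 in adjacent tissue and 12.37 to 13.65 in wildtype tissue. General epithelial markers rose in 6 of 8 and fell in 0, led by Krt18 (1.94 ± 0.19), Esrp1 (1.05 ± 0.12), Elf3 (0.74 ± 0.13) and Krt19 (0.70 ± 0.08). Epcam (0.05) and Cldn7 (-0.27), named after their values were seen, did not pass (limma adjusted p = 0.666 and 0.157). The list's mean was 12.70 to 12.92 in tumors, 12.05 to 12.25 in adjacent tissue and 12.15 to 12.60 in wildtype tissue. Gastric pit markers rose in 6 of 6, led by Gkn2 (7.49 ± 0.87) and Vsig1 (6.77 ± 0.79).

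Among blood cells, dendritic cell markers fell in 5 of 9 and rose in 1, the migration receptor Ccr7, named after its value was seen. Cd209a (-1.44 ± 0.27), Itgax (-0.84 ± 0.16), Xcr1 (-0.68 ± 0.12) and Clec9a (-0.65 ± 0.14) led the decrease, and the list's mean was 6.83 to 7.15 in tumors, 7.18 to 7.55 in adjacent tissue and 7.15 to 7.34 in wildtype tissue. Macrophage markers fell in 7 of 10 and rose in 0, with a median of -0.52. Mertk fell far more than the rest (-2.46 ± 0.19), followed by Csf1r (-1.02 ± 0.17), C1qa (-0.74 ± 0.13) and C1qc (-0.63 ± 0.15). In adjacent tissue Mertk also had the highest mean of the list, 11.66, against 9.44 for Csf1r. Cd68 (-0.01), Mrc1 (0.19) and Cd163 (0.14), named after their values were seen, did not pass. The list's mean was 8.02 to 8.32 in tumors, 8.62 to 9.15 in adjacent tissue and 8.505 to 8.56 in wildtype tissue. B cell markers fell in 3 of 9, namely Cd79a (-0.93 ± 0.21), Cd37 (-0.79 ± 0.10) and Cd79b (-0.53 ± 0.16), while the list's median was 0.05 and its mean 6.75 to 7.20 in tumors, 7.09 to 7.47 in adjacent tissue and 6.95 to 7.22 in wildtype tissue. T cells of mice do not themselves make class II, though single markers on this list and the others need not be limited to the cell type named. The T cell markers fell in 7 of 7, led by Cd3g (-2.95 ± 0.27) and Cd3e (-2.28 ± 0.21). Their mean was 7.01 to 7.57 in tumors, 8.36 to 8.66 in adjacent tissue and 7.79 to 8.61 in wildtype tissue. Of the smooth muscle markers 0 of 6 passed (Myh11 at -0.71, adjusted p = 0.255), and of the pancreatic acinar markers 0 of 9 (Pnliprp1 at -2.78, adjusted p = 0.122).

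Against wildtype duodenum the same 6 members fell in tumors, H2-Aa, H2-Ab1, H2-Eb1, Cd74, H2-DMa and Ciita, where 4.48% of all genes fell and 9.65% rose, 14.1% in all. The groups did not overlap for those 6, where 5.04% of all genes had such a gap with tumors lower and 8.53% with tumors higher. H2-DMa again changed most (-2.25 ± 0.27, limma adjusted p = 0.00027), followed by H2-Aa (-1.91 ± 0.21, adjusted p = 0.000171) and H2-Ab1 (-1.89 ± 0.22, adjusted p = 0.00027), and then Cd74 (-1.42 ± 0.13), H2-Eb1 (-1.38 ± 0.20) and Ciita (-1.37 ± 0.24, adjusted p = 0.00255). H2-Oa and H2-Ob did not pass, at -0.20 ± 0.13 and -0.26 ± 0.18 (adjusted p = 0.39 and 0.403). The tumors are those of the comparison with adjacent tissue, so that the comparisons share their tumor arrays.

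Wildtype replicate 1 moved these values. It was the lowest wildtype array for 7 members, all but H2-Oa, and for 6 members it lay above all tumors and below all adjacent arrays. Without it H2-DMa changed by -2.56 ± 0.27, H2-Aa by -2.19 ± 0.20, H2-Ab1 by -2.24 ± 0.18 and Ciita by -1.70 ± 0.22, and the same 6 members passed. Of all 19938 genes, 4526 passed there in either direction, against 2817 with all arrays. Ciita depended most on the wildtype arrays used. It stood at -2.19 once the 4 acinar-bearing non-tumor arrays were left out, which leaves wildtype replicate 2 as the only wildtype array. Without the 4 that lacked acinar transcripts it stood at -0.96. Wildtype replicate 1 is the one with gastric pit markers at a tumor level, and what part this has in its class II level was not tested. It is also the only wildtype mouse with ID letter F. Within that letter the comparison rests on this 1 array, whose spread was assumed to be like that of the other groups, so whether a member passed there says little: H2-Aa stood at -1.08 and Ciita at -0.66 (limma adjusted p = 0.113 and 0.599), 0 of 8 members passed, and 0.0702% of all genes did. Within letter B, with 2 wildtype arrays, 6 members passed, where 18.6% of all genes passed in either direction.

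Adjacent tissue against wildtype tissue asks whether the Lrig1-/- duodenum outside the tumor differs in class II. In limma 0 of 8 members passed in either direction and 0 had an unadjusted p below 0.05; over all genes 0 passed, 0% of those tested, and 559 had an unadjusted p below 0.05. For 0 of 8 members did adjacent and wildtype arrays fail to overlap, where 1.17% of all genes had such a gap with adjacent tissue lower and 0.948% with it higher. All 8 point estimates were above 0. H2-Aa stood at 0.32 with a 95% interval of -0.15 to 0.78 on the log2 scale, H2-Ab1 at 0.37 (-0.12 to 0.86), H2-DMa at 0.38 (-0.21 to 0.98) and Ciita at 0.30 (-0.23 to 0.83). Cd74 had the narrowest interval, 0.09 (-0.18 to 0.37). Wildtype replicate 1 carried much of this: without it H2-Aa stood at 0.03, H2-Ab1 at 0.01, H2-DMa at 0.07, Cd74 at -0.05 and Ciita at -0.03. Without the 4 non-tumor arrays with acinar transcripts, which leaves adjacent replicates 3 to 5 and wildtype replicate 2, H2-Aa was at -0.02, H2-DMa at -0.05 and Ciita at -0.40, so the sign of these estimates rested on the arrays included.

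In level, the order of the 3 tissues was the same for all 8 members by their means: tumor below wildtype below adjacent. The step between tumor and wildtype tissue passed in limma for 6 members, and H2-Oa and H2-Ob did not differ there beyond their spread. The step between adjacent and wildtype tissue passed for 0 of 8. Its sign turned for Cd74 (-0.05) and Ciita (-0.03) once wildtype replicate 1 was left out. Wildtype replicate 2 was the highest wildtype array for 7 members, all but H2-Ob.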

How the data were processed

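Total RNA of 14 mouse duodenum samples was read on Affymetrix Mouse Gene ST arrays. The authors deposited log2 signal for 35556 transcript clusters; the unit was read from the values (2.87 to 14.8). Affymetrix Expression Console 1.1 and mm9 are named per the submitters' processing notes; how background was corrected and arrays were normalized remains not stated in the labels, and no detection calls were used. The number of arrays limits the precision. Clusters with 1 platform symbol (21789) were kept, symbols were updated through GRCm38.p6 gene IDs, and the brightest cluster per gene was used (19938 genes). No filter on low values was applied in the results reported.

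Groups came from sample titles and pairs from the mouse named in the sample description. Group means over all 14 arrays were fitted with limma 3.58.1 in R 4.3.3, with mouse as a random block (correlation 0.334) and Benjamini-Hochberg adjustment over all genes at 0.05. Deviations from group means correlated at 0.225 on average between tissues of a mouse and -0.0539 between mice. The spread is shared by the 3 groups, so wildtype scatter enters the tumor against adjacent SEs. The fit was tested on simulated data. Genes named besides the members are, for each of 15 lists (132 genes, 123 measured), the 4 (or fewer) that passed in tumor against adjacent tissue with the greatest absolute change, topped up to 2 from those that did not pass, and the 5 genes most like the members by each measure of r. The members and lists were chosen with earlier results of these data known. Alternatives covered the block, quantile normalization, a filter on low values, array weights, the cluster per gene, the arrays in the fit, ID letter, acinar content and each array left out.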

Additional observations from a re-analysis of the deposited data

How the results depend on the processing

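In tumor against adjacent tissue, 194 of 198 values of single members under the alternatives kept their direction and their side of the threshold; the other 4 concern H2-Oa and H2-Ob and are given above. H2-Aa, H2-Ab1, H2-Eb1, Cd74, H2-DMa and Ciita passed under all 25 alternatives, and the number of members lower was 8 with each array left out. With the filter on low values H2-Oa and H2-Ob were not tested and the other 6 passed. Without the replicate block 8 members were lower, and with mouse as a fixed replicate block in the 5 pairs also 8; the block changed no member's call in any comparison. All genes called numbered 6313, 1719 in mice of ID letter F, 2181 without the non-tumor arrays lacking acinar transcripts, and 5232 to 6475 with an array left out. Quantile normalization moved the median of all genes to -0.001, against 0.04 as deposited.

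Against wildtype, 6 members were lower in tumors under every alternative with more than 1 wildtype array. Letter F and the setting without acinar-bearing non-tumor arrays each left 1 wildtype array, so whether a member passed there says little. All genes called numbered 2817, 7030 with array weights, 14 in letter F, 504 without the non-tumor arrays lacking acinar transcripts, and 940 to 4526 with an array left out (4526 without wildtype replicate 1, 940 without replicate 2 and 1090 without replicate 3). Adjacent against wildtype tissue gave 0 members throughout. All genes called there numbered 0, 1 with quantile normalization, with the filter or with array weights, 73 in letter F, and 0 to 1 with an array left out. The test of a difference between ID letters gave 0 members, and 0 to 1 with an array left out: H2-DMa passed without wildtype replicate 2 or 3 (adjusted p = 0.0488 in both). All genes called there numbered 7, 2 without the replicate block, and 2 to 261 with an array left out (261 without adjacent replicate 1). Settings that leave out arrays test fewer samples; otherwise the cause was not tested. No detection limit was computed, so how far the low members H2-Oa and H2-Ob lie above background is unknown here.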
